A study of Arabidopsis thaliana and Lotus japonicus with 44 samples.

Results

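In roots of Lotus japonicus, 9 annotated transcripts differed at least 4-fold between the symbiosis mutant cyclops-4 and its wild type Gifu in the same direction with and without an arbuscular mycorrhizal fungus (AMF). Of these, 4 were higher and 5 were lower in cyclops-4. They were chosen by their measured genotype ratios from 49868 annotated transcripts. For each transcript, counts per 1000000 counts of the library (CPM) were averaged in each group and 0.5 was added. The ratio between the genotypes had to be 4 or more, or 0.25 or less, in both treatments, and the higher genotype had to hold a mean of at least 10 counts in both of its groups, which 9889 transcripts did in at least 1 genotype. Since these genotype ratios chose the transcripts, they are given here as a description and were not tested.

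The study compared roots of cyclops-4 with AMF (3 libraries), Gifu with AMF (4 libraries), cyclops-4 without AMF (3 libraries) and Gifu without AMF (4 libraries). All 4 groups grew on diluted Murashige and Skoog (MS) medium, not on the low-nutrient MS medium given to some Arabidopsis plants. The cyclops-4 line carries a knockout of the gene called ipd3 or CYCLOPS. Plants of both genotypes were 6 weeks old, and those with AMF had been in contact with germinated spores of Rhizophagus irregularis for 48 h, while those without AMF received sterile water. Each library was made from the pooled roots of 5 seedlings from 1 plate, cyclops-4 is a single mutant line, and a further 30 libraries of the series, from Arabidopsis, were not used.

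Most land plants exchange carbon for soil nutrients with AMF that grow inside their root cells. The plant perceives the fungus through the common symbiosis pathway, in which calcium signals in the nucleus act through the kinase CCaMK on CYCLOPS, also called IPD3. CYCLOPS is a transcription factor that binds DNA and turns on genes needed for accommodation of the fungus, and plants without it are hardly colonised.

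The library totals lay between 2466468 and 2871520 counts. Replicate libraries differed by more than counting error in all 18 pairs, with a chi-square per degree of freedom of 3.51 to 18.04. Gifu without AMF replicate 2 stood apart in composition. Its library size after normalization with the trimmed mean of M-values (TMM) was 0.763 of its total, against 0.880 to 1.10 in the other libraries. None of the 9 transcripts was lost when it was left out. Lotus reads were counted with the forward-stranded setting, whereas Arabidopsis reads of the series were counted with the reverse-stranded setting. Lotus transcripts with an exon opposite an exon of another transcript made up 12.1% of the annotation, and they held 74.4% to 81.9% of the counts of a library, most in Gifu without AMF replicate 2. Whether the strand setting matches the Lotus libraries was not tested. If it did not, a count would belong to the strand opposite the transcript that it is listed under. This holds for each of the 9, and the homologs named below would then not describe the RNA that was counted. In pooled roots, fewer cells of a type and less RNA per cell cannot be told apart.

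**Figure D1:**
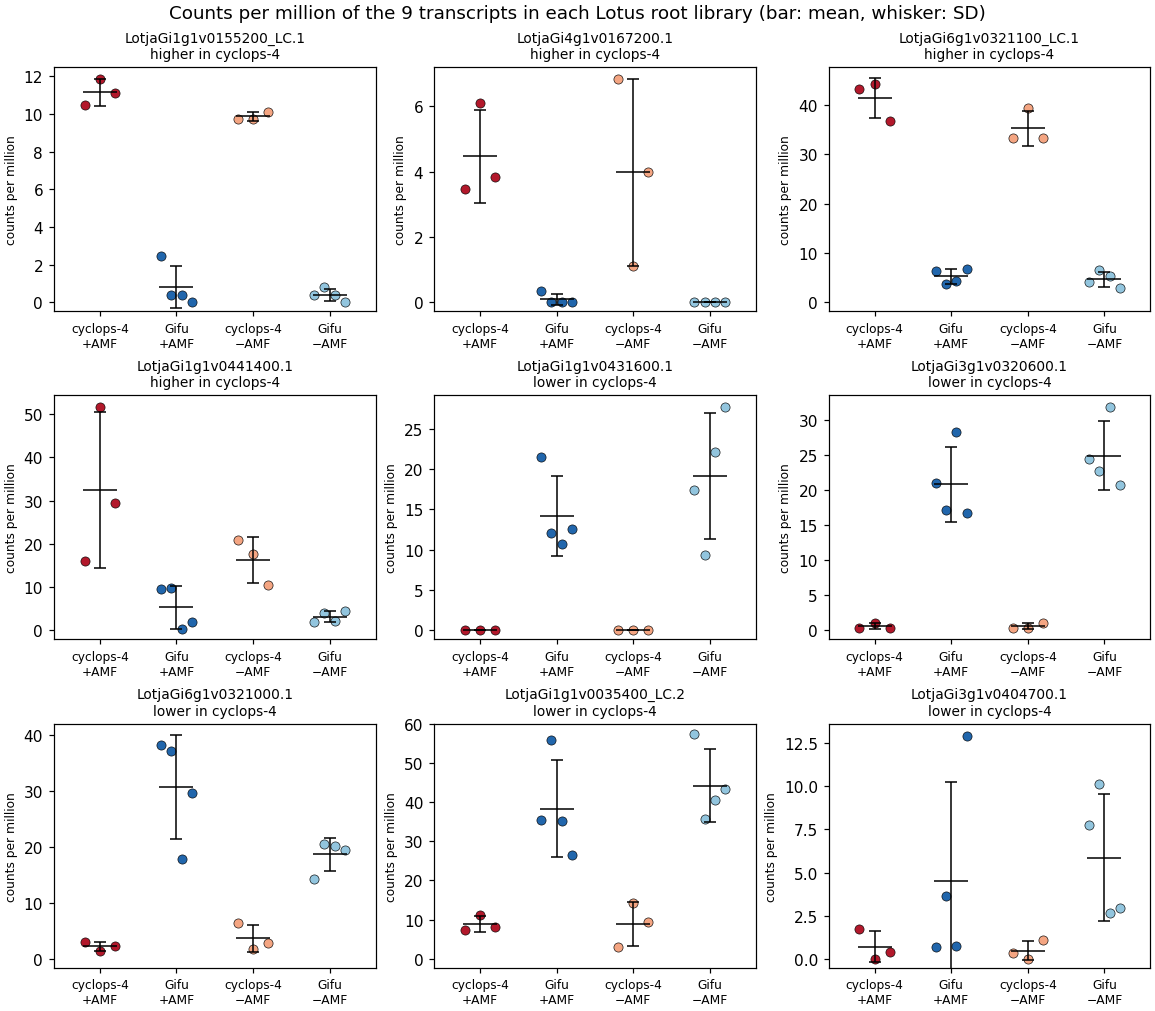
CPM (vertical axes, linear) of the 9 transcripts in each of the 14 Lotus root libraries, 1 panel per transcript, with cyclops-4 left of Gifu in each treatment. Points are libraries, bars group means and whiskers SD. For 8 of the 9 transcripts no library of the lower genotype reached any library of the higher genotype, and the exception is LotjaGi3g1v0404700.1.

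Among the transcripts higher in cyclops-4, LotjaGi1g1v0155200_LC.1 had the most even counts in cyclops-4. The study names it as a homolog of FRS5, a FAR1-related gene of Arabidopsis, in a family whose founding members are transcription factors of light signalling. It lies on chromosome 1 at 27537007 to 27540396 on the minus strand, with 4 exons. With AMF it held 30, 33 and 29 counts in the cyclops-4 libraries, against 7, 1, 1 and 0 counts in the Gifu libraries. Without AMF it held 27, 26 and 28 counts in cyclops-4, against 1, 2, 1 and 0 counts in Gifu. All 6 cyclops-4 libraries were above all 8 Gifu libraries, and the highest Gifu library was replicate 1 with AMF. The mean was 11.1 ± 0.708 CPM in cyclops-4 and 0.798 ± 1.12 CPM in Gifu with AMF (SD, n = 3 and 4), and 9.86 ± 0.224 CPM in cyclops-4 and 0.389 ± 0.332 CPM in Gifu without AMF. The log2 ratio of cyclops-4 to Gifu was 3.16 with AMF and 3.54 without AMF, and with AMF it was 3.97 when Gifu replicate 1 was left out.

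The transcript LotjaGi4g1v0167200.1 held almost no counts in Gifu. The study names it as a homolog of JASSY of Arabidopsis, a protein of the chloroplast envelope that takes part in the synthesis of the defence hormone jasmonate. It lies on chromosome 4 at 31860806 to 31865205 on the plus strand, with 6 exons. It held 10, 17 and 10 counts in cyclops-4 with AMF, against 1, 0, 0 and 0 counts in Gifu with AMF. Without AMF, the cyclops-4 libraries held 19, 3 and 11 counts, against 0 in each of the 4 Gifu libraries. A single count was thus seen in Gifu over 8 libraries, while the cyclops-4 libraries differed among themselves, mainly without AMF. From the pooled counts the ratio of cyclops-4 to Gifu with AMF was 48.9, with a 95% counting interval of 8.26 to 1985. Without AMF it was at least 3.50-fold higher in cyclops-4, set against a floor of 3 counts in each Gifu library. The counting interval and the floor cover counting error only. The log2 ratio of the rule was 3.08 with AMF and 3.16 without AMF.

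The third transcript higher in cyclops-4 was LotjaGi6g1v0321100_LC.1, on the minus strand of chromosome 6 at 63751697 to 63759500, with 2 exons. The cyclops-4 libraries with AMF held 124, 123 and 96 counts, against 18, 10, 12 and 18 counts in Gifu with AMF. In the cyclops-4 libraries without AMF it held 92, 105 and 92 counts, against 11, 16, 14 and 8 counts in Gifu without AMF. It held counts in every library, and the lowest cyclops-4 libraries held 92 counts where the highest Gifu libraries held 18. The log2 ratio was 2.85 with AMF and 2.78 without AMF.

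The largest SD among the transcripts higher in cyclops-4, 18.1 CPM in cyclops-4 with AMF, was that of LotjaGi1g1v0441400.1, on the minus strand of chromosome 1 at 93797503 to 93800819, with 6 exons. It held 46, 144 and 77 counts in cyclops-4 with AMF, against 27, 27, 1 and 5 counts in Gifu with AMF. It held 58, 47 and 29 counts in cyclops-4 without AMF, against 5, 10, 6 and 12 counts in Gifu without AMF. The genotypes did not overlap, although the lowest cyclops-4 library, with 29 counts, was close to the highest Gifu libraries, with 27 counts. Per length it reached the highest level of the 9 transcripts, at an average of 18.5 RPKM (CPM per kilobase of exon) in cyclops-4 with AMF, against 3.08 RPKM in Gifu with AMF. The log2 ratio was 2.48 with AMF and 2.21 without AMF.

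Among the transcripts lower in cyclops-4, LotjaGi1g1v0431600.1 had no count in any of the 6 cyclops-4 libraries. The study names it as a homolog of an uncharacterised gene of Arabidopsis with a MYB/SANT domain, a DNA-binding domain found in many transcription factors. It lies on chromosome 1 at 92646459 to 92650965 on the minus strand, with 3 exons. Cyclops-4 with AMF held 0 counts in each library, against 61, 33, 29 and 33 counts in Gifu with AMF. Cyclops-4 without AMF again held 0 counts in each library, against 47, 23, 59 and 75 counts in Gifu without AMF. Set against the floor of 3 counts in each cyclops-4 library, it was at least 13.02-fold lower in cyclops-4 with AMF and at least 17.5-fold lower without AMF. In Gifu its level per length was 8.66 RPKM with AMF and 11.7 RPKM without AMF.

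LotjaGi3g1v0320600.1 held few counts in cyclops-4. It lies on the plus strand of chromosome 3 at 68049426 to 68057271 and is annotated as a single exon of 7846 bp. It held 1, 3 and 1 counts in cyclops-4 with AMF, against 60, 47, 77 and 44 counts in Gifu with AMF. It held 1, 1 and 3 counts in cyclops-4 without AMF, against 66, 56, 85 and 56 counts in Gifu without AMF. From the pooled counts, the ratio of Gifu to cyclops-4 was 34.5 with AMF (95% counting interval 14.6 to 107) and 41.0 without AMF (17.3 to 127). The log2 ratio of the rule, cyclops-4 to Gifu, was -4.27 with AMF and -4.52 without AMF, and it depends on the 0.5 added. This transcript, LotjaGi4g1v0167200.1 and LotjaGi1g1v0431600.1 were the 3 with at most 3 counts in each library of the lower genotype.

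LotjaGi6g1v0321000.1 lies on the plus strand of chromosome 6 at 63751667 to 63759394, with 2 exons. It held 9, 4 and 6 counts in cyclops-4 with AMF, against 109, 102, 49 and 78 counts in Gifu with AMF. Without AMF it held 18, 5 and 8 counts in cyclops-4, against 39, 51, 54 and 53 counts in Gifu. Gifu was above cyclops-4 in each library, and within Gifu 3 of 4 libraries with AMF were above all libraries without AMF. The log2 ratio was -3.49 with AMF and -2.18 without AMF.

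LotjaGi1g1v0035400_LC.2 was detected in every library of both genotypes. It lies on the minus strand of chromosome 1 at 4831003 to 4840235, with 6 exons. It held 21, 31 and 21 counts in cyclops-4 with AMF, against 101, 153, 96 and 70 counts in Gifu with AMF. It held 8, 38 and 26 counts in cyclops-4 without AMF, against 155, 88, 108 and 117 counts in Gifu without AMF. The log2 ratio was -2.06 with AMF and -2.26 without AMF, just past the limit of the rule.

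The weakest case was LotjaGi3g1v0404700.1, on the plus strand of chromosome 3 at 80721663 to 80725535, with 4 exons. With AMF it held 5, 0 and 1 counts in cyclops-4, against 2, 10, 2 and 34 counts in Gifu. Here the genotypes overlapped, and Gifu replicate 4 alone held most of the counts of its group. Without AMF the counts were 1, 0 and 3 in cyclops-4, against 21, 25, 7 and 8 in Gifu, with no overlap. The log2 ratio was -2.05 with AMF and -2.70 without AMF, and the ratio with AMF was -0.86 when Gifu with AMF replicate 4 was left out.

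With AMF, 5 transcripts were at least 4-fold higher in cyclops-4 (0.0520% of those with enough counts) and 8 were at least 4-fold lower (0.0854%). Without AMF, 27 were at least 4-fold higher (0.281%) and 7 were at least 4-fold lower (0.0747%). The number lower with AMF was 16 when cyclops-4 with AMF replicate 1 was left out and 6 when replicate 3 was left out. The number higher without AMF was 17 when Gifu without AMF replicate 2 was left out and 13 when cyclops-4 without AMF replicate 3 was left out. It rose to 36 when cyclops-4 without AMF replicate 2 was left out and to 35 when Gifu without AMF replicate 4 was left out. Libraries of the genotypes did not overlap with AMF for 4 of 4 transcripts higher in cyclops-4 and for 4 of 5 lower. Over the 12616 transcripts that reached 10 counts in any library, 2.57% did so upwards and 2.87% downwards. Without AMF all 9 transcripts showed no overlap, against a background of 7.33% upwards and 2.59% downwards. All 6 cyclops-4 libraries were above all 8 Gifu libraries for 4 of the 9 transcripts and for 0.159% of the 12616, and below them for 4 of the 9 and for 0.166% of the 12616. The rule used these values, so the shares are printed beside the counts only.

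**Figure D2:**
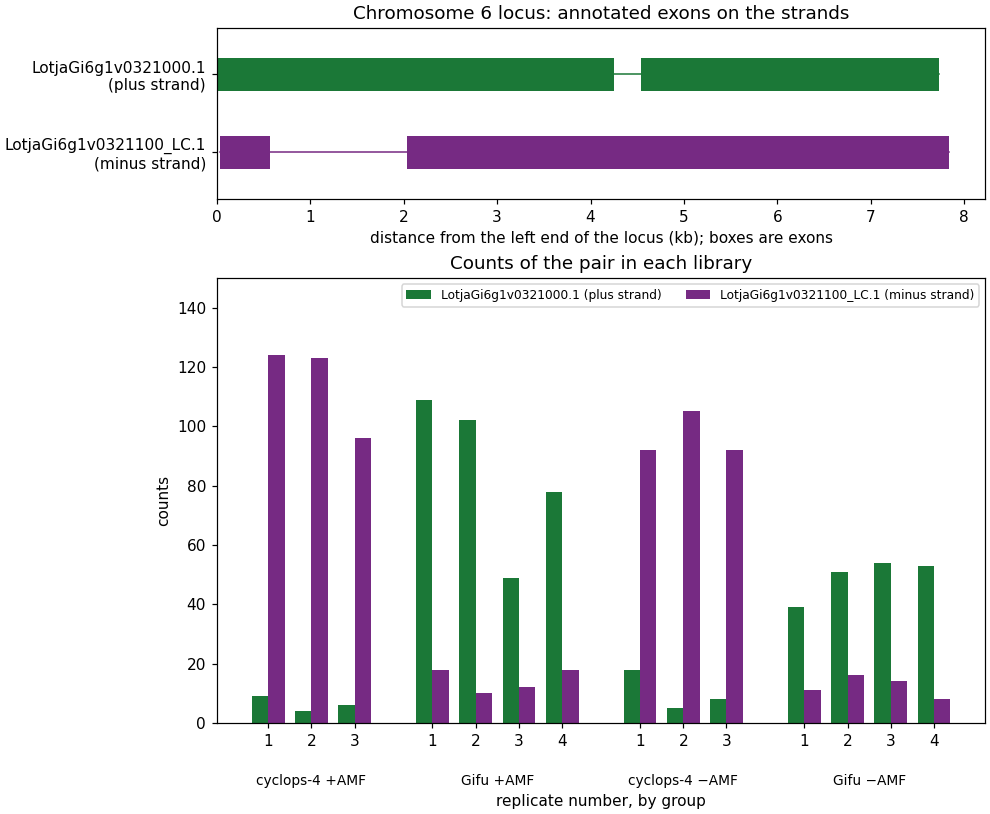
Upper panel, the annotated exons (boxes) of the chromosome 6 pair on the plus and minus strand, with distance from the left end of the locus in kb. Lower panel, counts (linear axis from 0) of LotjaGi6g1v0321000.1 in green and LotjaGi6g1v0321100_LC.1 in purple in each library, by replicate number within each group. The purple bar is the taller one in all 6 cyclops-4 libraries and the green bar in all 8 Gifu libraries.

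Of the 9 transcripts, 2 are annotated on opposite strands of the same locus and went in opposite directions. LotjaGi6g1v0321000.1 on the plus strand was lower and LotjaGi6g1v0321100_LC.1 on the minus strand was higher in cyclops-4. Their spans share 7698 bp, and 5942 exon bases face each other, which is 79.9% of the exon length of the plus-strand transcript and 93.8% of that of the minus-strand one. The plus strand held 5.27% ± 1.89 of the counts of the pair in cyclops-4 with AMF (SD, n = 3) and 84.6% ± 4.93 in Gifu with AMF (SD, n = 4). Without AMF, it held 9.64% ± 6.08 in cyclops-4 (n = 3) and 80.1% ± 4.72 in Gifu (n = 4). In single libraries the plus-strand share reached at most 16.4% in cyclops-4, in replicate 1 without AMF (Wilson 95% interval 10.6% to 24.4%, from 110 counts). The lowest share in Gifu was 76.1%, in replicate 2 without AMF (Wilson 95% interval 64.7% to 84.7%, from 67 counts). A swapped strand setting would largely exchange the names of the transcripts in these values but not the presence of a difference between the genotypes.

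Because the rule took both transcripts, in opposite directions, a large difference in the strand share was fixed by the choice and is a description only. The summed level of the pair averaged 43.7 ± 4.05 CPM in cyclops-4 with AMF and 36.1 ± 9.72 CPM in Gifu with AMF, with overlapping libraries. Without AMF it averaged 39.0 ± 2.57 CPM in cyclops-4 and 23.4 ± 3.81 CPM in Gifu, without overlap. Of all tested transcripts, 7.33% were without overlap in this direction without AMF. Both parts of the sum were chosen on these genotype values, so its difference between the genotypes is a description too. Within Gifu, the sum with AMF was 12.7 CPM above that without AMF, and 3 of 4 libraries with AMF exceeded every library without AMF (two-sided exact permutation p = 0.114, Benjamini-Hochberg adjusted p = 0.4 over 4 tests). The share of the plus strand with AMF minus that without AMF was 4.51 percentage points in Gifu (exact permutation p = 0.229, adjusted p = 0.4) and -4.37 percentage points in cyclops-4 (exact permutation p = 0.4, adjusted p = 0.4). The fourth test, on the sum in cyclops-4, gave a difference of 4.66 CPM (exact permutation p = 0.3, adjusted p = 0.4). With 3 libraries against 3 the smallest p is 0.1, so that cyclops-4 could not reach the threshold of 0.05, and with 4 against 4 it is 0.0286.

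The transcripts nearest to the limit of the rule were similar on its outside and inside. Just inside were LotjaGi3g1v0404700.1 (4.14-fold lower in cyclops-4 with AMF and 6.49-fold without AMF), LotjaGi1g1v0035400_LC.2 (4.16-fold and 4.79-fold lower) and LotjaGi6g1v0321000.1 (11.2-fold and 4.53-fold lower). Just outside were LotjaGi5g1v0198300.1 (3.998-fold and 8.40-fold higher in cyclops-4), LotjaGi4g1v0271600.1 (3.94-fold and 4.40-fold lower) and LotjaGi6g1v0259300.1 (11.7-fold and 3.87-fold higher). The limit therefore separates transcripts whose ratios differ by little.

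A further 4 transcripts passed the ratio and not the count minimum, and 2 of them are homologs that the study names together with members of the list. LotjaGi1g1v0070100.1, the second homolog of the MYB/SANT gene, held 0 counts in each cyclops-4 library of both treatments. It held 11, 8, 3 and 8 counts in Gifu with AMF and 6, 4, 8 and 6 counts in Gifu without AMF. LotjaGi4g1v0393400.1, the second homolog of FRS5, held 7, 10 and 9 counts in cyclops-4 with AMF, against 3, 0, 0 and 1 counts in Gifu with AMF. Without AMF it held 6, 10 and 6 counts in cyclops-4, against 0 counts in each Gifu library. In each of these homologs the direction was that of its relative among the 9, and no library of 1 genotype overlapped with those of the other. Both had passed the ratio on these same values, so this is a description only. Of the 12616 tested transcripts, 0.159% had all cyclops-4 libraries above all Gifu libraries and 0.166% had them below. The other 2, named after their values were seen, were LotjaGi1g1v0606300.1 and LotjaGi3g1v0040700_LC.1, both higher in cyclops-4. LotjaGi1g1v0606300.1 was at 0 counts in cyclops-4 with AMF replicate 1, against 28 and 20 counts in the other replicates.

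The 9 transcripts lie on 4 of the chromosomes, with 4 on chromosome 1, 2 on chromosome 3, 1 on chromosome 4 and 2 on chromosome 6. Of all 12616 tested transcripts, 27.3% were on chromosome 1, 18.3% on chromosome 3, 15.98% on chromosome 4 and 11.8% on chromosome 6. No transcript of the list was on chromosome 2 or 5. Apart from the chromosome 6 pair, the closest neighbours in the list were LotjaGi1g1v0431600.1 and LotjaGi1g1v0441400.1, which lie 1.15 Mb apart with 47 tested transcripts between them and went in opposite directions. The list held no run of adjacent transcripts with the same direction.

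**Figure D3:**
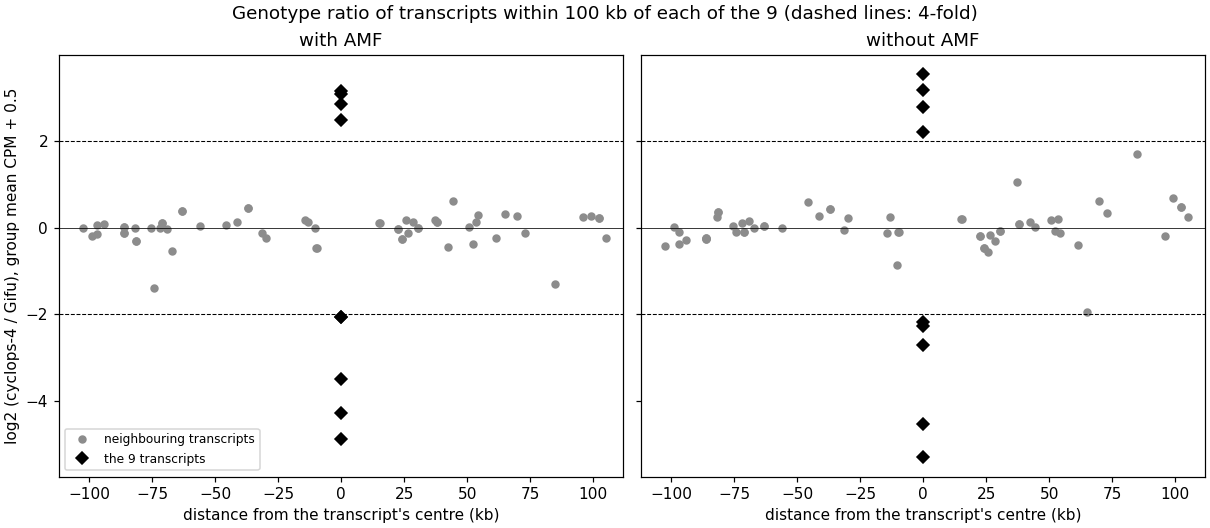
Log2 ratio of cyclops-4 to Gifu with AMF (left) and without AMF (right) for tested transcripts within 100 kb of each of the 9, against the distance between transcript centres in kb. Grey points are neighbours, black diamonds the 9 transcripts and dashed lines 4-fold. None of the 52 neighbours passed 4-fold in either treatment, against 54 of all 12616 tested transcripts, which is a near share. The 100 kb were counted from the ends of a transcript. LotjaGi1g1v0035700_LC.1 and LotjaGi1g1v0035800.1, with centres 117.3 and 119.9 kb away, lie beyond the axis and are not shown. Neighbours of the chromosome 6 pair are drawn for each transcript of the pair.

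Within 100 kb lay 52 other tested transcripts, of which 0 passed 4-fold in either treatment and 4 passed 2-fold in at least 1 treatment. These were LotjaGi1g1v0441800.1, LotjaGi1g1v0432000.1, LotjaGi3g1v0320200.1 and LotjaGi3g1v0320800.1, and none passed 2-fold in the same direction in both treatments. Of all 12616 tested transcripts, 54 passed 4-fold and 656 passed 2-fold in at least 1 treatment. In both treatments, 45 of the 12616 passed 2-fold in the same direction. With 52 neighbours, the counts of 0 and 4 are near these shares and do not set the neighbours apart from other transcripts. The median absolute log2 ratio of these neighbours was 0.14 with AMF and 0.22 without AMF, against 0.18 and 0.22 over all tested transcripts. The largest ratio of a neighbour was that of LotjaGi1g1v0441800.1, which had a log2 ratio of 0.32 with AMF and -1.94 without AMF and lies near LotjaGi1g1v0441400.1, a transcript higher in cyclops-4.

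In their annotation the 9 transcripts resembled the tested transcripts in exon number and strand overlap. The median was 4 exons in both, and the median exon length was 3093 bp in the 9 and 2637 bp over all tested. An exon opposite another annotated exon was found in 2 of the 9 (22.2%), the chromosome 6 pair, against 20.7% of all tested transcripts. Names ending in _LC were carried by 3 of the 9 (33.3%), against 11.7% of all tested. In their highest group the 9 reached a median of 4.14 RPKM, against 5.02 RPKM over all tested. The genes of LotjaGi4g1v0167200.1 and LotjaGi1g1v0035400_LC.2 each have a second annotated transcript, which held 0 counts over all 14 libraries, so that the switch to counts per gene gave the same genes.

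When each library was left out in turn and the rule was applied to the other 13, it took 6 to 11 transcripts. LotjaGi1g1v0155200_LC.1, LotjaGi6g1v0321100_LC.1, LotjaGi1g1v0431600.1 and LotjaGi3g1v0320600.1 were chosen in all 14 rounds. LotjaGi4g1v0167200.1 and LotjaGi6g1v0321000.1 were chosen in 13, LotjaGi1g1v0441400.1 in 12, LotjaGi3g1v0404700.1 in 11 and LotjaGi1g1v0035400_LC.2 in 10. The lowest number, 6, was found when cyclops-4 without AMF replicate 1 was left out, which removed LotjaGi1g1v0035400_LC.2, LotjaGi1g1v0441400.1 and LotjaGi4g1v0167200.1.

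Whether the 9 transcripts also responded to the fungus was examined over all 12616 transcripts by edgeR's quasi-likelihood test with Benjamini-Hochberg adjustment. The rule limits this test, because a response large enough to close the gap in 1 treatment would have kept a transcript out. In Gifu, 0 of the 9 passed an adjusted p of 0.05, against a background of 2.90%, and 1 of the 9 had an unadjusted p under 0.05, against 14.9% of all tested. That transcript was LotjaGi6g1v0321000.1, with an edgeR adjusted p of 0.153. LotjaGi4g1v0167200.1, with 1 count over all 8 Gifu libraries, could not show a response in this genotype. DESeq2 gave an adjusted p for 7 of the 9 and called 0 of them (background 2.88%), and edgeR's likelihood-ratio test with a common dispersion called 0 of the 9 (background 5.13%). The median log2 change with AMF in Gifu was 0.13 over the 9 and -0.01 over all tested. Regardless of direction, the median absolute log2 change was 0.459 over the 9 and 0.253 over all tested. The difference between these medians was not tested, and some of the 9 held few counts in Gifu. The standard error was 1.63 for LotjaGi4g1v0167200.1 and 1.01 for LotjaGi1g1v0155200_LC.1, against 0.212 to 0.601 for the others.

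In cyclops-4, 0 of the 9 passed the threshold in edgeR, against a background of 0.119%, and 1 had an unadjusted p under 0.05, against 6.56% of all tested. That was LotjaGi1g1v0441400.1, with an edgeR adjusted p of 0.568. DESeq2 gave an adjusted p for 5 of the 9 and called 0 of them (background 0.300%). The likelihood-ratio test with a common dispersion called 1 of the 9 (background 1.26%), which was this transcript, with an adjusted p of 0.0213. The quasi-likelihood test without a filter on low counts also called it (background 0.653%), with an adjusted p of 0.00991. Its counts with and without AMF overlapped in cyclops-4, and the highest library was replicate 2 with AMF, with 144 counts. LotjaGi1g1v0431600.1, at 0 in all cyclops-4 libraries, could not show a response in this genotype. The median log2 change with AMF in cyclops-4 was 0.19 over the 9 and 0.01 over all tested. Regardless of direction, the median absolute log2 change was 0.209 over the 9 and 0.214 over all tested.

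The difference of the AMF response, cyclops-4 minus Gifu, passed the threshold for 0 of the 9 in edgeR, against a background of 0.151%, and 1 had an unadjusted p under 0.05, against 6.94% of all tested. It was LotjaGi6g1v0321000.1, with an edgeR adjusted p of 0.599. LotjaGi1g1v0431600.1, at 0 in all cyclops-4 libraries, could not show a difference here, and LotjaGi4g1v0167200.1 rested on 1 count in Gifu. Regardless of direction, the median absolute log2 difference over all tested was 0.298. Over the 9 the median fell on LotjaGi1g1v0431600.1, whose fitted difference had a standard error of 692, so it is not set against that value. DESeq2 gave an adjusted p for 6 of the 9 and called 0 of them (background 0.556%), and the likelihood-ratio test with a common dispersion called 0 of the 9 (background 1.18%). These counts do not show that the 9 were unaffected by AMF, since several hold few counts in a genotype.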

How the data were processed

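RNA was measured in 14 Lotus root libraries, grouped by genotype and treatment from the labels. The deposited values are raw counts per annotated transcript. The authors cleaned the reads with SOAPnuke, assigned them with BBSplit, discarded ambiguous reads, and counted with featureCounts 2.0.1 (strand setting 1) on the Gifu 1.2 assembly, whose coordinates are used. Totals were 2466468 to 2871520 counts, and replicates are not said to come from separate plates, so that p-values measure the spread between these libraries, which may be technical.

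CPM used library totals. The AMF response was fitted on the 2 groups of each genotype, and the interaction on all 14 libraries, with edgeR 4.0.16 (TMM, limma 3.58.1, R 4.3.3), for transcripts that reached 10 counts in any library, with a threshold of 0.05. Fits were tested on simulated data. DESeq2 1.42.0 and edgeR's common dispersion, the study's method, were alternatives, with other scalings, filters, limits of the rule, a replicate block and each library left out. Python 3.11.15, numpy 2.4.6, pandas 2.3.3, scipy 1.17.1 and matplotlib 3.10.9 were used for all other steps.

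The rule, the lists and the tests were chosen with earlier results of these data known. The text names all 9 transcripts, the 3 nearest inside and outside the ratio of 4 and homologs that the study names, and AMF fold changes were to be printed only for transcripts past the threshold. The gene mutated in cyclops-4, symbiosis genes and root markers were not checked, since no source used here pairs their symbols with Lotus identifiers, and no Lotus sequence was used. Shares of left-out values on the side of their genotype were computed and are not reported, since the libraries they were set against had chosen the transcripts.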

Additional observations from a re-analysis of the deposited data

Results flagged for a closer look

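Within the groups of 4 libraries, 2 of 21 sets of values held a library far from the other 3. For normally distributed values chance gives about 1 in 20. Both were Gifu with AMF replicate 1, in transcripts higher in cyclops-4. LotjaGi1g1v0155200_LC.1 held 7 counts there, against 0 to 1 in the other Gifu libraries with AMF (gap over range 0.851). LotjaGi4g1v0167200.1 held 1 count there, against 0 in the others (gap over range 1.0). Both values are low counts, and both stayed below all cyclops-4 libraries. The share of 1 in 20 does not apply to counts this near 0. A single count against 0 in the others always gives a gap over range of 1.0.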

How the results depend on the processing

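The number of transcripts chosen was 9 as reported, 4 with a pseudocount of 2, 15 with a ratio of 3 and 4 with a ratio of 8. It was 7 to 13 under the other 7 settings, among them 10 with TMM scaling, and all of the 9 were kept with TMM, with DESeq2 size factors and with counts per gene. Leaving out 1 library gave 6 to 11, of which 6 to 9 were among the 9. With another pseudocount, 22 of 54 log2 ratios moved by more than the spread between replicates, and with another scaling or without a library of the treatment 1 of 162 did. The AMF response called 0 in Gifu and 0 in the interaction under the settings run, and leaving out 1 library gave 0 to 0 in each contrast. With filterByExpr only 6 of the 9 were tested in Gifu and 5 in cyclops-4. In cyclops-4 it called 1, LotjaGi1g1v0441400.1, with the common-dispersion test and 1 without a filter on low counts (adjusted p 0.00991), where the range over settings was 0.00991 to 0.965. The replicate block called 0 of the 9 in each contrast. The replicate numbers do not pair the libraries: correlations of deviations between same-numbered libraries ran from -0.217 to 0.234. At this depth a group at 0 counts gives a lower bound only, and a group of 1 to 3 counts per library a wide interval.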
